A study of Mus musculus with 8 samples.

Results

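Genes of the sarcomere were measured in the dissected heart field of the mouse embryo, the tissue that lies behind the forming heart tube and adds cells to it. The set held 39 genes of 48526 in the count table, chosen by name as components of the contractile apparatus or its assembly (8 of the thick filament, 13 of the thin filament and its regulators, 12 of the Z-disc, cytoskeleton and actin-linked complexes, 3 of titin and the M-band, 2 assembly chaperones) together with *Nppa*, which encodes a peptide secreted by heart muscle. All 39 were found in the table by symbol, and 27 passed the filter for testing, which asks for 20 or more DESeq2-normalized counts in 4 or more libraries. The libraries came from 4 wild-type male C57bl6/J embryos, named L29-3, L43-5, L46-8 and L49-3, at stage E8.5f. From each embryo the left side and the right side of the heart field were sequenced separately, which gives 4 left and 4 right libraries that are paired by animal. The heart tube and the back had been cut away before the region was split at the midline, so differentiated muscle of the heart itself was meant to be absent, and no group differed in genotype or treatment. The question of the comparison was which genes differ between the left and the right side of this field.

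A sarcomere is built from thick filaments of myosin that slide along thin filaments of actin. Troponin and tropomyosin on the thin filament make the sliding depend on calcium, the Z-disc anchors the thin filaments, and titin spans from the Z-disc to the M-band in the middle. At this stage the heart tube grows as precursor cells of the heart field enter it and switch on these genes, with atrial and ventricular or embryonic and adult forms of many proteins used at different times.

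The total was between 1147446 and 3520753 counts per library, and a count of 0 in a library allows up to 3 counts, or 0.844 to 2.64 CPM (counts scaled to a library of 1000000 counts). The heart field marker *Isl1*, a transcription factor of cardiac precursors, was present at 48.3 to 89.9 CPM in all 8 libraries, and *Nkx2-5*, a transcription factor of cardiac cells, at 32.0 to 94.0 CPM. The skeletal muscle regulators *Myod1* and *Myog* did not exceed 1 count in any library, and 8 blood genes summed to between 0.653 and 22.9 CPM. In whole tissue of this kind, fewer cells of a type and less RNA per cell cannot be told apart.

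Transcripts of the sarcomere were present in every library, but their amount differed between embryos and between the sides of single embryos. The 39 genes took 0.644% of all counts in the left side of L29-3 (95% Wilson interval 0.634 to 0.655) and 0.600% in its right side. They took 0.431% and 0.548% in the left and right sides of L43-5, and 0.451% and 0.272% in those of L46-8. In L49-3 they took 0.145% on the left (0.139 to 0.152) and 0.304% on the right. The intervals cover counting error alone. The libraries of L49-3 had the smallest totals, 1237593 and 1147446 counts. The right sides of L29-3 and L46-8 had totals of 1535626 and 1507857 counts and shares of 0.600% and 0.272%. Whether depth bears on the shares was not tested.

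Levels of different genes were compared as CPM per kilobase of exon. On this scale *Myl7*, the atrial regulatory myosin light chain, had the highest mean, 408 ± 199 (SD, n = 8 libraries), followed by cardiac actin *Actc1* with 276 ± 157 and smooth muscle actin *Acta2* with 146 ± 59.2. *Tpm1*, alpha-tropomyosin, had 120 ± 20.5, *Myh6*, the alpha-myosin heavy chain, 61.7 ± 43.6, and *Tnnc1*, the calcium-binding troponin C, 52.1 ± 22.9. *Myl7* lay above *Actc1* in 8 of 8 libraries and *Actc1* above *Acta2* in 7, whereas the order of *Myh6* and *Tnnc1* held in 4 of 8 libraries and was not settled. The next places went to *Myl4*, the atrial essential light chain, with 33.2 ± 14.4, cardiac troponin T *Tnnt2* with 30.4 ± 13, the beta-myosin heavy chain *Myh7* with 27.1 ± 10.8 and *Nexn*, an actin-binding Z-disc protein, with 25.5 ± 7.92. *Tnnt2* lay above *Myh7* in 5 of 8 libraries and *Myh7* above *Nexn* in 3, so these neighbors did not differ beyond their spread. The scale depends on the length used. With the longest transcript in place of all annotated exon, *Tpm1* rose to 269 and *Tnnt2* to 70.7 CPM per kilobase, and 9 of the 10 leading genes stayed among the first 10.

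**Figure D1:**
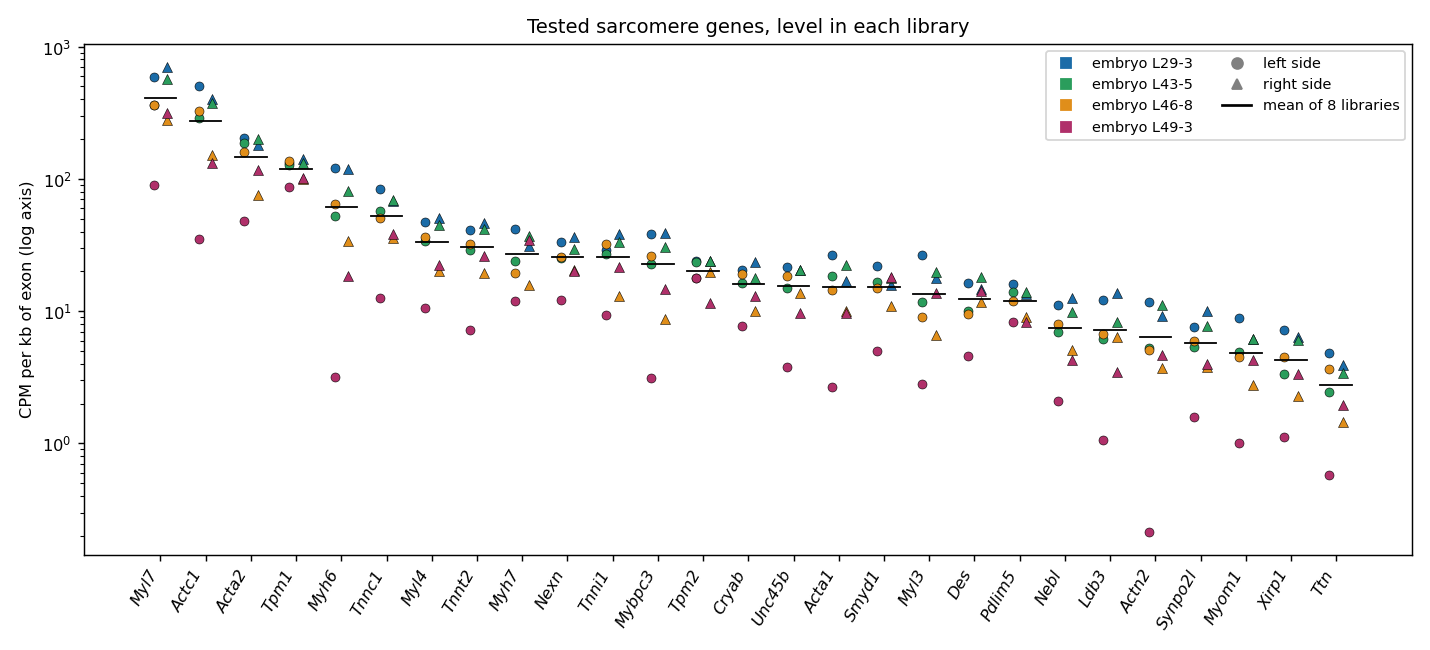
Level of the 27 tested sarcomere genes in CPM per kilobase of exon (log axis), ordered by their mean over the 8 libraries (black bars). Colors are embryos, circles left sides and triangles right sides, and the left side of L49-3 is the lowest library for 26 of the 27 genes.

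The other end of the range held the 12 genes below the filter. *Nppa* had 1 count in the 8 libraries together, *Myoz1* and *Myoz2*, which encode Z-disc proteins that bind calcineurin, had 1 count each, and *Myom2*, an M-band protein of mature muscle, had 2. The other 8 genes below the filter were detected at low levels. *Csrp3*, a Z-disc LIM protein, had 0.816 to 21.5 CPM, the ventricular light chain *Myl2* 0.857 to 13.5 CPM and the adult cardiac troponin I *Tnni3* between 0 and 12 CPM. *Tnnt1*, slow skeletal troponin T, had 1.31 to 9.28 CPM. The remaining 4, *Myh7b*, *Neb*, *Lmod2* and *Tcap*, did not exceed 4.72 CPM in any library.

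In the pairs of troponin I, regulatory light chain and troponin T genes, a single form held most of the counts in every library. The slow skeletal troponin I *Tnni1*, the form of the embryonic heart, took 89.6% to 100% of the counts of *Tnni1* and *Tnni3* together. *Myl7* took 96.1% to 99.6% of the counts of *Myl7* and *Myl2*, and *Tnnt2* took 88.3% to 99.6% of those of *Tnnt2* and *Tnnt1*. These shares are of counts, not corrected for length. In the left side of L49-3 the *Tnni1* share of 100% rests on 41 counts, with a Wilson interval from 91.4% to 100%.

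The thick filament genes, summed, ranged from 248 CPM on the left of L49-3 to 1983 CPM on the left of L29-3. *Myl7* stood at 350 and 413 CPM on the left and right of L29-3, at 213 and 335 in L43-5, at 213 and 163 in L46-8 and at 53.1 and 186 in L49-3. *Myh6* stood at 820 and 796 CPM in L29-3, at 356 and 541 in L43-5, at 432 and 228 in L46-8 and at 21.2 and 124 in L49-3, in the same left and right order. Its highest library was 38.6 times its lowest. The left and right groups overlapped in both genes, and the embryo with the highest values was L29-3 on either side.

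*Myh7* stood at 362 and 270 CPM on the left and right of L29-3, at 207 and 319 in L43-5, at 168 and 136 in L46-8 and at 104 and 298 in L49-3. *Myl4* stood at 220 and 236 CPM in L29-3, at 156 and 207 in L43-5, at 168 and 92.8 in L46-8 and at 49 and 104 in L49-3. The right side of L49-3 was thus among the lower libraries for *Myl4* but the third highest of all 8 for *Myh7*. Of the other tested thick filament genes, *Mybpc3*, cardiac myosin-binding protein C, ranged from 13.1 to 163 CPM and *Myl3*, the ventricular essential light chain, from 5.71 to 54.5 CPM. Exons of *Myl3* share 95 bases with *Pth1r* on the other strand, and whether strand was used in counting is not given.

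The balance of the myosin heavy chains differed between L49-3 and the other embryos. *Myh6* made up 69.4% and 74.6% of the counts of *Myh6* and *Myh7* in the left and right sides of L29-3, 63.2% and 62.9% in L43-5, and 71.9% and 62.5% in L46-8. In L49-3 it made up 17.0% of 153 counts on the left (95% Wilson interval 11.9 to 23.7) and 29.4% of 479 counts on the right (25.5 to 33.7). The lowest interval among the other 6 libraries began at 58.4%. The intervals cover counting error alone, and the shares were not tested between embryos. Per kilobase of exon, the level of *Myh6* was 2.14 to 3.77 times that of *Myh7* in the 6 libraries of L29-3, L43-5 and L46-8, and 0.262 and 0.534 times in the left and right sides of L49-3. The transcripts of these neighboring genes are 91.8% identical over 5810 bases, so reads may be divided between them with some error, and that part in the shares was not tested.

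The balance of the muscle actins differed as well. *Actc1* made up 51.9% to 62.6% of the counts of *Actc1*, *Acta1* and *Acta2* in the 6 libraries of the first 3 embryos, against 34.1% in the left side of L49-3 (28 to 40.9) and 44.2% in its right side (40.1 to 48.4). *Acta2*, the actin form that smooth muscle and early heart muscle use, made up 63.4% and 52.7% in L49-3 and 34.3% to 45% elsewhere. These shares were not tested between embryos.

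**Figure D2:**
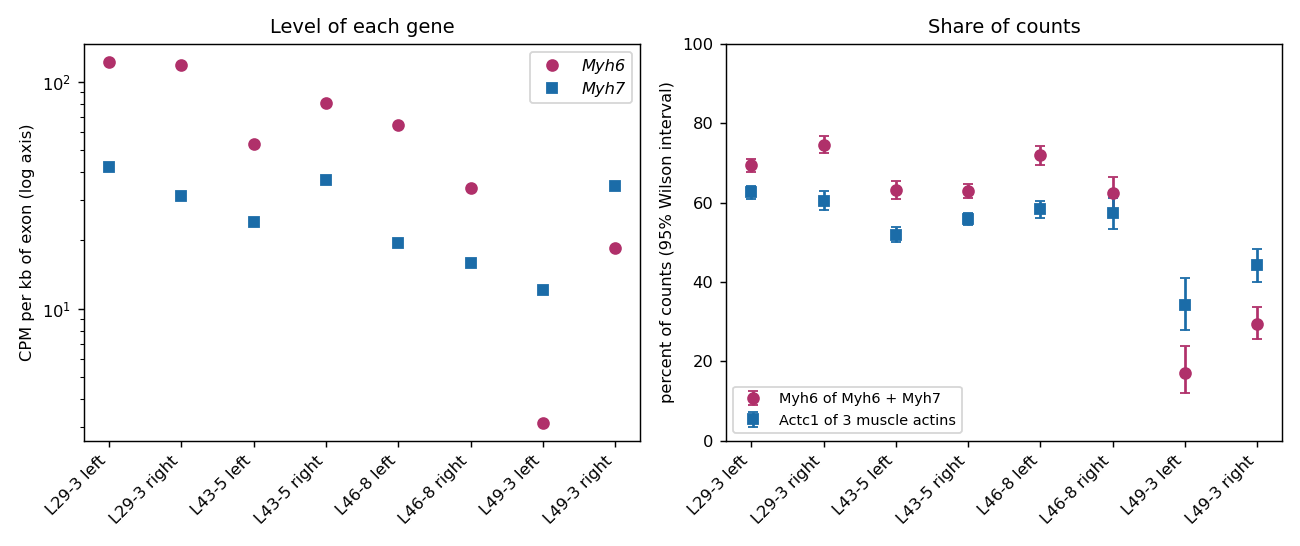
Left panel, CPM per kilobase of exon (log axis) of Myh6 and Myh7 in each library. Right panel, percent of counts of Myh6 among both heavy chains and of Actc1 among 3 muscle actins, with 95% Wilson intervals, showing the lower shares in both sides of L49-3, where Myh6 took 17.0% and 29.4%.

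The tested thin filament genes, *Tpm2* aside, were likewise lowest on the left of L49-3. *Actc1* stood at 812 and 649 CPM on the left and right of L29-3, at 471 and 603 in L43-5, at 524 and 245 in L46-8 and at 57.1 and 214 in L49-3. *Acta2* stood at 444 and 398 CPM in L29-3, at 409 and 441 in L43-5, at 352 and 167 in L46-8 and at 106 and 256 in L49-3. For both actins the left side exceeded the right in L29-3 and L46-8 and fell below it in L43-5 and L49-3.

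*Tnnt2* stood at 320 and 358 CPM in L29-3, at 224 and 325 in L43-5, at 248 and 150 in L46-8 and at 55.5 and 202 in L49-3. *Tnnc1* stood at 87.6 and 71.2 CPM in L29-3, at 59.5 and 72.6 in L43-5, at 53.1 and 37.0 in L46-8 and at 13.1 and 39.7 in L49-3. Both troponins were lowest in the left side of L49-3 and next lowest in the right side of L46-8. *Nebl*, the nebulin-like protein nebulette, stood at 171 and 192 CPM in L29-3, at 106 and 151 in L43-5, at 122 and 77.3 in L46-8 and at 31.8 and 65.2 in L49-3.

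*Tpm1* stood at 859 and 913 CPM in L29-3, at 833 and 862 in L43-5, at 887 and 645 in L46-8 and at 567 and 654 in L49-3. Its highest library was 1.61 times its lowest, the smallest such range among the tested sarcomere genes with more than 3 counts everywhere. *Tpm2*, beta-tropomyosin, ranged from 33.5 to 70.1 CPM, and was the 1 tested gene whose lowest library was the right side of L49-3. Both tropomyosin genes are also expressed outside striated muscle. *Tnni1* ranged from 33.5 to 138 CPM, and skeletal actin *Acta1* from 4.08 to 40.8 CPM.

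Among the genes of the Z-disc and its linkers, *Nexn* stood at 128 and 140 CPM on the left and right of L29-3, at 96.2 and 114 in L43-5, at 99.0 and 78.0 in L46-8 and at 46.5 and 77.6 in L49-3. *Ldb3*, which encodes the Z-disc protein ZASP, stood at 73.9 and 83.6 CPM in L29-3, at 37.8 and 50.9 in L43-5, at 41.1 and 39 in L46-8 and at 6.53 and 21.2 in L49-3. Each of these was highest in L29-3 and lowest in L49-3 on both sides. *Pdlim5*, a PDZ and LIM protein that is not particular to muscle, stood at 142 and 120 CPM in L29-3, at 123 and 123 in L43-5, at 106 and 80 in L46-8 and at 73.5 and 74.1 in L49-3. Its highest library was 1.93 times its lowest.

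*Des*, desmin, the intermediate filament protein that links neighboring myofibrils, stood at 61.8 and 54.8 CPM in L29-3, at 37.8 and 68.4 in L43-5, at 35.6 and 43.7 in L46-8 and at 17.1 and 52.9 in L49-3. Its right sides lay between 43.7 and 68.4 CPM and its left sides between 17.1 and 61.8 CPM, so that the groups overlapped. The remaining tested genes of this class were sarcomeric alpha-actinin *Actn2* (0.816 to 44.7 CPM), the actin-binding repeat protein *Xirp1* (6.53 to 42.1), *Synpo2l* (7.35 to 46.4) and the small heat shock protein *Cryab* (11.4 to 34.6). *Actn2* had a single count in the left side of L49-3 and 20 counts in the right side. *Cryab* shares 252 exon bases with *Hspb2* on the other strand.

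Titin, *Ttn*, ranged from 67.7 CPM in the left side of L49-3 to 567 CPM in the left side of L29-3, and the M-band protein gene *Myom1* from 10.6 to 92.8 CPM between the same libraries. *Myom1* shares 207 exon bases with *Myl12a*, a non-muscle myosin light chain with 3706 counts, on the other strand. The assembly factors *Unc45b*, a myosin chaperone, and *Smyd1*, a methyltransferase of myofibril assembly, ranged from 17.1 to 97.5 CPM and from 22.9 to 99.6 CPM. For all 4 genes the extremes were the left sides of L49-3 and L29-3.

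The same library was the lowest for nearly all of these genes. The left side of L49-3 held the minimum of 26 of the 27 tested sarcomere genes (96.3%), against 18.1% of all 9744 tested genes. It also held that of 8 of the 9 tested heart muscle genes outside the sarcomere (88.9%). A side of L29-3 held the maximum of 25 sarcomere genes, the left side that of 14 and the right side that of 11. Of all tested genes, 10.3% had their maximum in the left side of L29-3 and 12.7% in its right side. For the 9 tested heart muscle genes outside the sarcomere, these sides held the maximum of 4 and 3. The highest library exceeded the lowest by a median of 6.17-fold over the 26 sarcomere genes with more than 3 counts in every library, against 1.53-fold over the 9697 such genes of all those tested. Over the 8 such heart muscle genes outside the sarcomere the median was 6.10-fold. The sarcomere genes were picked as one structure and share these libraries, so the counts describe 8 libraries and are not independent observations.

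Promoter stretches from RefSeq (GRCm38.p6) are shown for 4 sarcomere genes that hold a CArG box, the sequence bound by serum response factor. Whether the box bears on the levels of these genes was not tested. Each stretch is the 120 bases before the RefSeq start, read 5′ to 3′ on the strand of the gene, with the box in capitals.
Actc1, chr2:114052876-114052995, minus strand: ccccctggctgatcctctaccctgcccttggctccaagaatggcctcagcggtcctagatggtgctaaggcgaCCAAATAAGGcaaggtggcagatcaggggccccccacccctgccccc
Acta1, chr8:123894776-123894895, minus strand: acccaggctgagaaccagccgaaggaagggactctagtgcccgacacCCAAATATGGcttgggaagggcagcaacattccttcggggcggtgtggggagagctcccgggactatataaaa
Myl7, chr11:5898783-5898902, minus strand: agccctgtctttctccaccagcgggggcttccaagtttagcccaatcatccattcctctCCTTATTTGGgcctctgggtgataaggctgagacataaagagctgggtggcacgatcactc
Ldb3, chr14:34588682-34588801, minus strand: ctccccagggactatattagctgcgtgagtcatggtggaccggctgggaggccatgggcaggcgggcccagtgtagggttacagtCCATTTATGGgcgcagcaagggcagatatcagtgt

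The box begins 47 bases before the start in *Actc1*, 73 in *Acta1*, 61 in *Myl7* and 35 in *Ldb3*, where a further annotated start lies 109 bases from the same box. GENCODE places no exon in the stretches of *Acta1* and *Myl7*, 12 exon bases in that of *Actc1* and 1 in that of *Ldb3*. Windows from 250 bases before to 50 after the start were given for 32 of the 39 genes, 43 windows in all. A CArG box on either strand was in 8 of the 43 windows (18.6%), those of *Actc1*, *Acta1*, *Myl3*, *Myl7*, *Nebl*, *Myom1* and *Ldb3*, against 1.63% of 32851 windows of all genes. A MEF2 site was in 11.6% of the windows of sarcomere genes, in *Ttn*, *Mybpc3*, *Synpo2l* and *Myoz2*, against 3.19% of all. The short motif CATTCC was in 25.6% against 14.7%, TATAAA in 18.6% against 13.6% and AGGTGT in 18.6% against 13.7%. MEF2 sites can overlap TATAAA. These matches describe letters in a fixed window, and windows of 1 gene can overlap.

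Between the left and right sides, 1 of the 27 tested genes passed the threshold of the study, a change of 1.2-fold or more together with an unadjusted p no higher than 0.05. Of all 9744 tested genes 3.05% passed, 1.63% with higher and 1.42% with lower values on the left. The gene was *Des*, which was lower on the left, with 38.1 ± 18.3 CPM against 54.9 ± 10.2 on the right (SD, n = 4 each) and a log2 fold change of -0.54 ± 0.21 (SE; edgeR quasi-likelihood test with embryo as a block, adjusted p = 0.987). Its left side was the lower one in L43-5, L46-8 and L49-3 and the higher one in L29-3. The gene no longer passed without L43-5, when the log2 fold change was -0.40, without L49-3 (-0.35) or without the embryo block (-0.50).

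No sarcomere gene had an adjusted p under 0.05 between the sides with edgeR, DESeq2 or limma-voom, against 0.0103% of all tested genes with edgeR, and 1 had an unadjusted p under 0.05 with edgeR. *Myl7* had a log2 fold change of -0.45 ± 0.21 and *Tnnt2* one of -0.33 ± 0.25 (SE, edgeR adjusted p = 0.987 for each). Leaving out 1 embryo moved these to -0.71 and -0.65 without L46-8 and to -0.20 and -0.034 without L49-3, and without a filter on low counts *Myl7* had an adjusted p of 0.00022 with edgeR. The difference was -0.32 ± 0.18 for *Ldb3*, -0.20 ± 0.29 for *Myh6* and -0.025 ± 0.29 for *Actc1*. The highest was that of *Pdlim5*, 0.16 ± 0.097. Fitted values were below 0 for 21 of the 27 genes and above 0 for 6, with a median of -0.12 against -0.0042 over all tested genes.

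The sides differed within embryos, but not in one direction. In L43-5, 26 of the 27 tested genes were higher on the right, by a median of 1.34-fold. In L49-3, 26 of 27 were again higher on the right, by a median of 2.96-fold, whereas in L46-8, 25 of 27 were higher on the left, by a median of 1.43-fold. L29-3 was even, with 15 genes higher on the left and 12 on the right and a median log2 ratio of 0.072. Of all tested genes, 48.9% were higher on the right in L43-5, 50.6% in L49-3 and 50% in L46-8. Of the 9 tested heart muscle genes outside the sarcomere, 8 were higher on the right in L43-5 and 8 in L49-3. In L46-8, 8 of these 9 were higher on the left.

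Not 1 tested sarcomere gene kept the same direction between the sides in the 4 embryos. The median over the 27 genes of the SD of the log2 ratio among embryos was 0.94, larger than any of the fitted mean differences. The median fitted difference was -0.42 without L46-8, when 10 of 28 tested genes passed the threshold of the study, all lower on the left, beside 388 of all 9803 genes tested in that fit. It was 0.034 without L49-3, when none of 28 did, beside 291 of 10166. The sign of the median difference thus changed with the embryo left out.

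**Figure D3:**
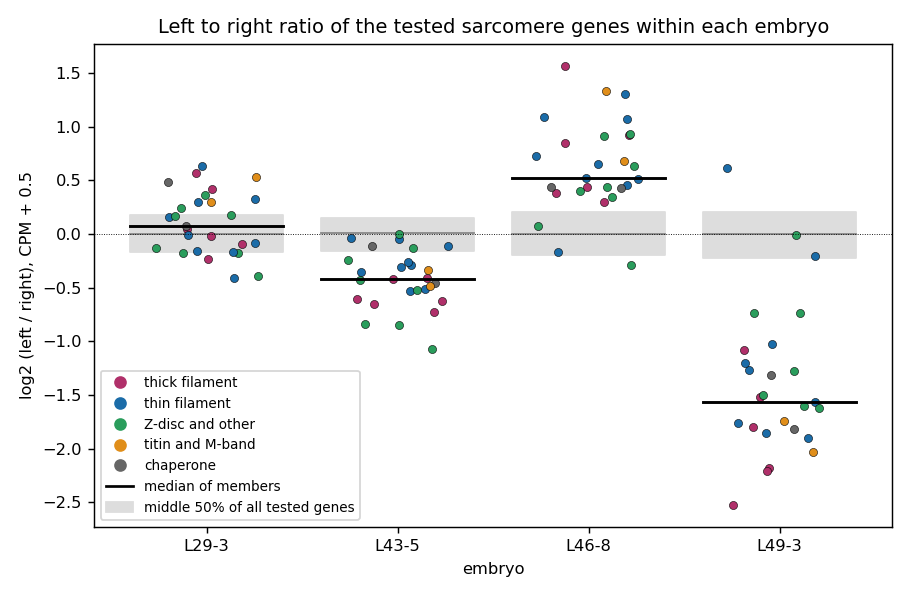
Log2 ratio of left to right CPM (0.5 added) of the tested sarcomere genes in each embryo, colored by role, with the median of the genes (black line) and the middle 50% of all tested genes (gray). Of 27 genes, 25 lay above 0 in L46-8 and 26 below it in L49-3, and Actn2 is not drawn in L49-3, where its left side had a single count.

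The classes moved as the whole set did. In L49-3 the median right-to-left ratio was 3.97-fold for the 6 tested thick filament genes, 2.40-fold for the 9 of the thin filament and 2.62-fold for the 8 of the Z-disc class. In L46-8 the median left-to-right ratio was 1.56-fold, 1.57-fold and 1.34-fold in the same order. *Tpm2* went the other way in both, its log2 left-to-right ratio being 0.61 in L49-3 and -0.17 in L46-8, and *Des* was lower on the left in each of L43-5, L46-8 and L49-3.

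Differences between the embryos were tested with side kept as a term. With edgeR, 2 of the 27 genes had an adjusted p under 0.05, *Ldb3* (0.0358) and *Myh6* (0.0470), against 0.174% of all tested genes. The count at an unadjusted p under 0.05 was 23 of 27, against 10% of all tested genes. The next smallest values were those of *Nebl* (edgeR adjusted p = 0.0644), *Pdlim5* (0.0817) and *Myl7* (0.117). The 4 genes with an unadjusted p of 0.05 or more were *Tnni1*, *Cryab*, *Des* and *Smyd1*. Both sides of an embryo come from 1 animal, so this test describes these 4 embryos.

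The calls between embryos depended on the embryos included. Without L49-3 no sarcomere gene had an adjusted p under 0.05 with edgeR, and neither did any of the 10166 genes then tested, so that this 0 is not particular to the sarcomere. None was called without L29-3 either, beside 46 of 9818 genes, whereas 18 of 28 were called without L46-8, beside 237 of 9803. In L46-8 the sides differed in the direction opposite to L43-5 and L49-3, and whether this bears on the calls was not tested. With limma-voom none was called, beside 4 of all 9744 tested genes, and the adjusted p was 0.0924 for *Ldb3* and 0.0975 for *Myh6*. With DESeq2 the 2 genes called, beside 46 of 9744, were *Ldb3* and *Unc45b*, and *Myh6* was not called (adjusted p = 0.354).

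Other genes of heart muscle were read beside these. Of 18 transcription factors of early heart cells 17 were tested. None passed the threshold of the study between sides, and 1 had an adjusted p under 0.05 between embryos (7 at an unadjusted p under 0.05). This was *Tbx5*, a T-box factor of the atria, left ventricle and venous pole, which had 10.6 CPM in each side of L49-3 and 47.4 to 86.1 CPM in the other 6 libraries (edgeR adjusted p = 0.0201). *Gata4*, which binds promoters of many heart muscle genes, had 10.6 and 37.9 CPM in L49-3 and 91.4 to 176 CPM elsewhere, without passing the adjusted threshold (edgeR adjusted p = 0.0686). Serum response factor *Srf* ranged from 110 CPM in the left side of L49-3 to 185 CPM in the left side of L46-8. The left side of L49-3 held the minimum of 9 of the 17 factors and its right side that of 3. Each of these sides also held the maximum of 1, *Hey1* on the left and *Isl1* on the right. *Isl1* had 76.7 and 89.9 CPM in L49-3 and 48.3 to 65.2 CPM elsewhere.

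Of 20 further genes of heart muscle cells outside the sarcomere 9 were tested. None passed between sides, and 1, the sodium-calcium exchanger *Slc8a1*, had an adjusted p under 0.05 between embryos (8.98 and 15.9 CPM in L49-3, 26.9 to 85.9 elsewhere, edgeR adjusted p = 0.0377). All 9 had an unadjusted p under 0.05 between embryos with edgeR. *Atp2a2*, the calcium pump of the sarcoplasmic reticulum, ranged from 460 to 849 CPM. The left side of L49-3 was lowest for 8 of the 9. The other was *Gja1*, with 437 and 398 CPM in L49-3 and 291 to 366 CPM elsewhere. *Mb*, *Ckm*, *Casq2* and *Fgf12* did not exceed 3 counts in any library, so these 4 genes of the list were near 0.

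As a sum, the non-muscle counterparts of the sarcomere proteins varied little. The 14 genes of this list, among them cytoplasmic actin *Actb* and the non-muscle myosin heavy chain *Myh10*, summed to between 9843 and 11109 CPM. *Actb* ranged from 4216 to 5331 CPM and *Myh10* from 692 to 887 CPM, so that the sum rests largely on *Actb*. None of the 14 passed between sides, and 1, the light chain *Myl9*, which smooth muscle also uses, had an adjusted p under 0.05 between embryos (edgeR adjusted p = 0.0499). *Myl9* had 19.6 and 27.3 CPM in L49-3 and 40.3 to 78.6 CPM elsewhere, and like most sarcomere genes it was lowest on the left of L49-3. In the left side of L49-3 the sum of the list was 101% of its mean over the libraries, whereas the thick filament genes stood at 21.1%, the thin filament genes at 43.5% and the Z-disc class at 42.1%. The early transcription factors stood at 52.4%.

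**Figure D4:**
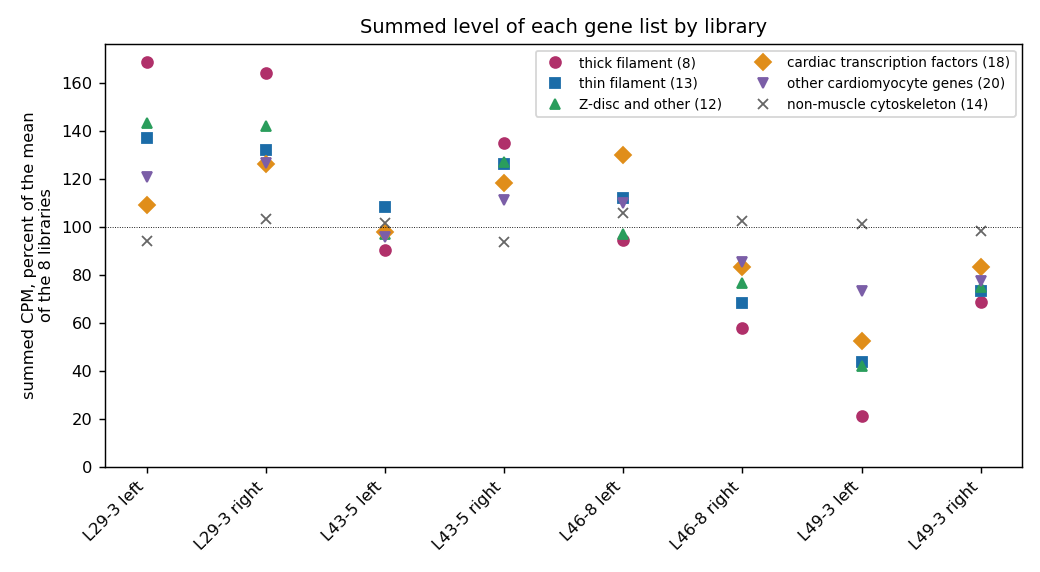
Summed CPM of each gene list in each library, as a percent of that list's mean over the 8 libraries (number of genes in brackets). In the left side of L49-3 the thick filament genes stood at 21.1% and the non-muscle cytoskeleton at 101%.

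Markers of other tissues also differed between the libraries. The 9 neural genes summed to 692 and 709 CPM in the left and right sides of L49-3, against 375 to 554 CPM in the other 6 libraries. Of the 7 neural genes tested, 2 passed the threshold of the study between the sides, the neural transcription factors *Sox1* and *Pax6*, both lower on the left, with log2 fold changes of -0.98 and -0.83 (edgeR adjusted p = 0.987 for each). The part of such tissue in the lower sarcomere values of L49-3 was not tested. The 9 endoderm genes summed to between 441 and 596 CPM, and the 10 endothelial genes to between 332 and 581 CPM, lowest in the right side of L49-3. Of 17 skeletal muscle genes 7 did not exceed 3 counts in any library, and of 7 smooth muscle genes 4 were tested, of which *Mylk*, myosin light chain kinase, passed the threshold of the study (higher on the left, edgeR adjusted p = 0.987).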

How the data were processed

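Poly-A RNA of the left and right heart field of 4 embryos (8 libraries) was measured. The values deposited by the authors are raw counts per gene. Reads were aligned to GRCm38 with Hisat2 and counted with featureCounts. Versions, annotation release and strand setting are not given in the sources used here. Duplicates were excluded because, as the paper states, their number was high. How this exclusion bears on the levels per kilobase and on the library totals was not tested. Identifiers were matched to GENCODE vM21, with a symbol for 48058 of 48526. Totals and floors per library give the depth.

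Sides and embryos were compared with edgeR 4.0.16 (R 4.3.3), TMM scaling and quasi-likelihood tests of a model of embryo and side, on the 9744 genes that reached 20 DESeq2-normalized counts in 4 or more libraries. Benjamini-Hochberg adjustment ran over all these genes. The fit was tested on simulated data. DESeq2 1.42.0, limma 3.58.1, other scalings and filters, and leaving out each embryo were alternatives. The sides are paired because they share an animal. The correlation of their deviations was 0.165, 0.190, -0.016 and 0.437 in L29-3, L43-5, L46-8 and L49-3. Between a left and a right side of different embryos it ranged from -0.389 to 0.255, so not every pair was the closest match. No 2 libraries agreed within sampling noise. CPM uses TMM library sizes, and ratios add 0.5 CPM.

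The genes and lists were chosen with earlier results of these data known. Values are given by library for the 10 genes of highest level per kilobase, those past the study's threshold and the 5 of smallest p between embryos. The labels name no batch or collection date. The p-values and SE between sides rest on the spread within these 4 embryos, moderated toward that of all tested genes. They thus do not measure a gene's own spread alone. The SD of the log2 ratio among embryos was 0.76 for *Des* and 1.46 for *Myh6*. The p-values between embryos are set against the spread that side leaves within embryos, moderated likewise, not against variation between animals.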

Additional observations from a re-analysis of the deposited data

Results flagged for a closer look

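In groups of 4 libraries, a value was singled out where its gap to the nearest other exceeded the 95% critical share of the group's range. Of 58 groups examined, 2 did so, and chance gives about 1 in 20. *Tpm1* had 567 CPM in the left side of L49-3, against 833 to 887 CPM in the other 3 left sides. The share of *Myh6* among the counts of *Myh6* and *Myh7* was 17.0% in the same library, against 63.2% to 71.9% in the other 3 left sides.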

How the results depend on the processing

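The count of sarcomere genes past the threshold of the study between sides was 1, beside 297 of all 9744 tested genes. It was 6 without a filter, beside 687 of 23873, and 0 with no replicate block, beside 233 of 9744. It ranged from 0 to 10 when 1 embryo was left out. It was 2 without L29-3, beside 354 of 9818 genes, and 0 without L43-5, beside 329 of 9309. It was 10 without L46-8, beside 388 of 9803, and 0 without L49-3, beside 291 of 10166. The count of 0 at an adjusted p under 0.05 became 1 (*Myl7*) without a filter, beside 34 of 23873 genes, and kept its value under the other alternatives. The 2 genes called between embryos became 29 without a filter, and 1 with at least 10 counts in every library, beside 9 of 9482 genes. With limma-voom the count was 0, beside 4 of 9744. With DESeq2 it stayed at 2, beside 46 of 9744, but with *Unc45b* in place of *Myh6*. It ranged from 0 to 18 when 1 embryo was left out. The fit without a filter held 23873 genes, of which 641 were called between embryos, against 17 of 9744, and the cause was not tested. The log2 fold change of *Actc1* changed sign to 0.094 with limma-voom and 0.12 with no replicate block, and ranged from -0.40 to 0.32 when 1 embryo was left out, and that of *Myh6* from -0.58 to 0.087. The adjusted p between embryos ranged from 2.6e-17 to 0.597 for *Ldb3* and from 5.1e-188 to 0.627 for *Myh6* over all alternatives. The count of tested sarcomere genes was 21 with at least 10 counts in every library and 32 with a mean normalized count of at least 5.6. The embryo block changed no other call between the sides.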
